A study of Mus musculus with 21 samples.

Results

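Every cell that secretes proteins passes them through the endoplasmic reticulum (ER). A list of 40 genes of this pathway, all present among the 12791 genes listed for mouse uterus, was described here. It was chosen with earlier results of these data known. The list holds 9 lumenal chaperones and cochaperones, 2 lectin chaperones, 4 disulphide isomerases, 5 stress sensors and transcription factors, 4 genes of ER-associated degradation, 8 genes of the Sec61 channel and its associated proteins, 3 of signal peptidase and 5 of oligosaccharyltransferase. RNA sequencing was run on the whole uterus of C57BL/6J mice, a common inbred strain, with no engineered allele (wild type). The groups were aged mice (6 libraries), mice of 8 weeks (7 libraries) and mice of 5 weeks (7 libraries). All mice, the young ones included, had received pregnant mare serum gonadotropin (PMSG), which stimulates ovarian follicles, at 5 or 7.5 units, and their uteri were taken 48 hours later. The labels do not say which mouse had which dose. The series title names genes associated with ageing of endometrial cells as its question. The labels split every age into an earlier set (replicates 1 and 2, with aged mice of 60 to 75 weeks) and a later set (replicates from 3 upwards, with aged mice of 79 weeks). Age within the aged group and any other difference between the sets therefore cannot be told apart.

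Most secreted and membrane proteins enter the ER through the Sec61 channel while they are being made, where signal peptidase removes the leader and oligosaccharyltransferase adds a sugar tree. BiP (Hspa5) and GRP94 (Hsp90b1), the lectins calnexin and calreticulin and the disulphide isomerases then fold the chain, and chains that fail are pulled back out and degraded. When unfolded chains build up, the sensors ATF6, IRE1 (Ern1) and PERK start the unfolded protein response, a set of transcription programmes run by cleaved ATF6, spliced XBP1 and ATF4. In the uterus the pathway is known for serving the glands and the luminal epithelium, which secrete into the lumen under estrogen, and the stroma, which lays down matrix.

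Levels are in CPM, the reads of a gene scaled to a library sum of 1000000, and each difference is on the scale of log2(CPM + 1), aged minus younger, which understates the change of low genes. A gene was called when its Benjamini-Hochberg adjusted p over all genes, from limma with the set as a covariate, was under 0.05. Recomputed depth ran from 12204573 to 14448283 reads per library (earlier set) and from 19100690 to 30689439 (later set). The value columns of 15 of the 20 usable files carried the name of another sample than the file did, and columns were assigned by their own name. For 4 libraries the choice matters for the group or set. These were 5-week replicate 3 (in a file attached to an aged mouse), 8-week replicate 3 (in a file attached to a 5-week mouse) and aged replicates 2 and 5 (in files of the other set). With those 4 libraries left out, an alternative chosen after seeing the data, 20 members were lower in aged than in 8-week uteri, as were 665 of all genes, and 22 lower than in 5-week uteri, as were 988 of all genes. Nothing in the labels says that replicates are separate mice, so p-values measure the spread between these samples.

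RNA of most ER entry and folding genes was lower in aged than in 8-week uteri, and fewer of them were called lower against 5 weeks. Against 8 weeks 26 of 40 members were called lower, where 8.53% of all genes were, and 0 were called higher, where 8.64% of all genes were. The lower calls ran from -0.47 for Sec61a1, the channel's pore subunit, to -1.33 for Manf, a small secreted ER stress protein, and 6 members were at least 2-fold lower (Manf, Sdf2l1, Ssr2, Ostc, Hspa5 and Ssr1), as were 2.92% of all genes. Against 5 weeks 20 members were called lower, where 9.41% of all genes were. Hyou1, Creld2, Dnajb11, Calr, Pdia4, Sec61a1 and Ddost were called lower against 8 weeks and not against 5 weeks (adjusted p of 0.0649 to 0.203 there). Ddit3, which encodes the stress factor CHOP, was the 1 member called higher against 5 weeks, where 12.7% of all genes were. Both comparisons use the same aged libraries. The median difference of the 40 members was -0.61 against 8 weeks and -0.48 against 5 weeks, beside 0.05 and 0.09 for all genes. In whole tissue, fewer cells of a secreting type and less RNA per cell cannot be told apart. Within the later set alone (4 aged, 5 8-week libraries) 2 members were called lower against 8 weeks, Hspa5 and Ssr1, as were 132 of all genes. With no set term the count was 17 members and 469 genes, and with columns attached by file it was 10 members and 256 genes, beside 26 members and 1091 genes as reported. Against 5 weeks, attaching columns by file gave 25 members lower and 727 genes. Within the later set alone, 1 member (Ssr1) and 283 genes were lower against 5 weeks.

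**Figure D1:**
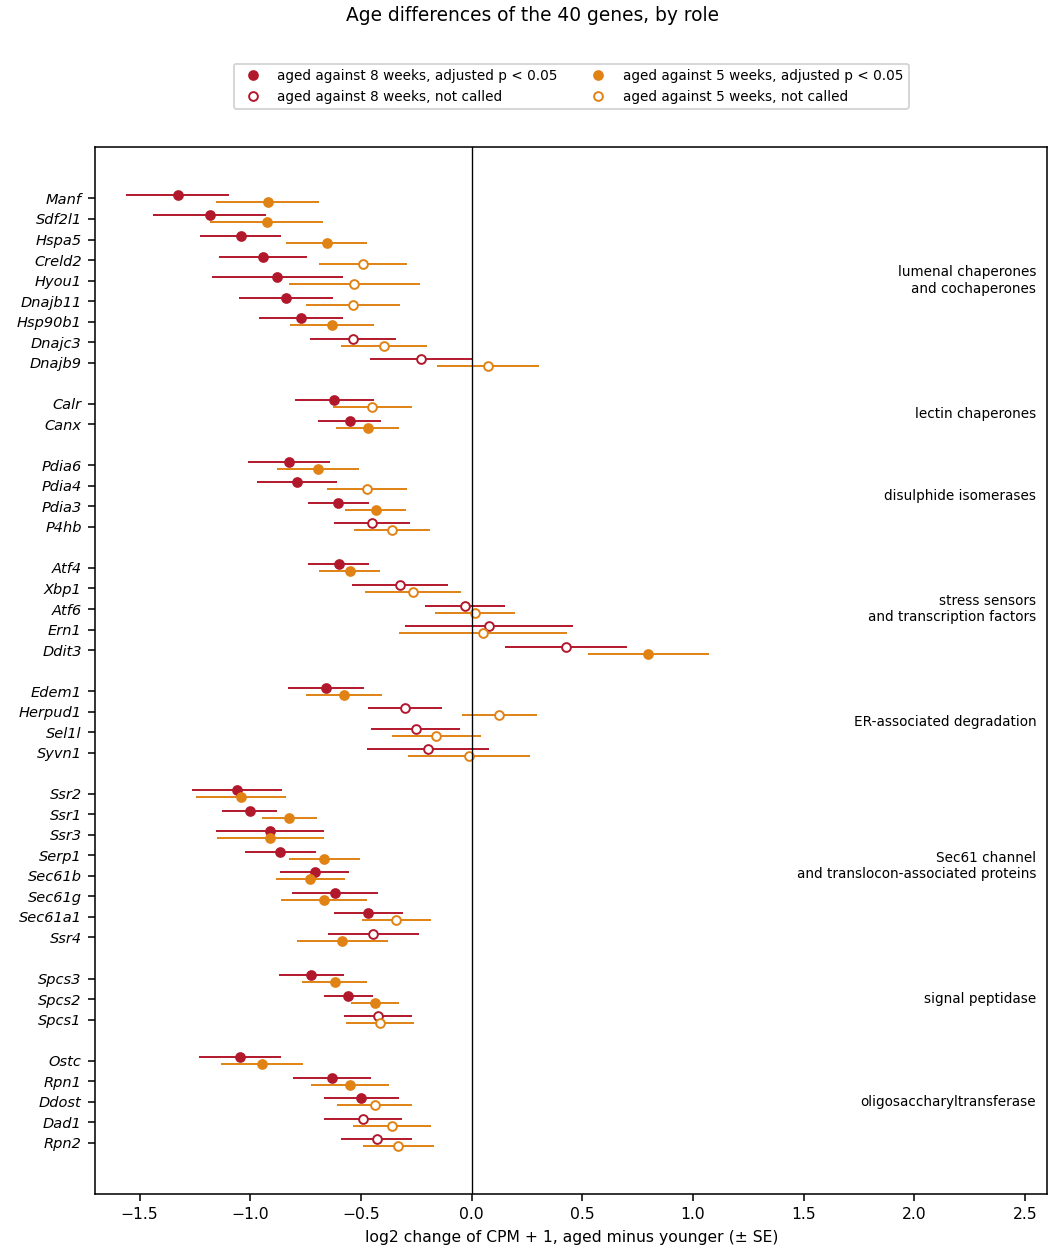
Difference of each of the 40 genes between aged and 8-week uteri (red) and between aged and 5-week uteri (orange), in log2 of CPM + 1 with its standard error, grouped by role, where filled points passed an adjusted p of 0.05. Against 8 weeks 38 of the 40 points lie below 0, as do 45.4% of all genes, and the stress sensors Atf6 and Ern1 lie at -0.03 and 0.08.

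Promoter sequence was examined because cleaved ATF6, with NF-Y, acts on the ER stress response element (ERSE), made of CCAAT and CCACG with a spacer between them. Stretches of 60 bases that hold it are shown for the members that also led their role group in the test. They are from RefSeq on GRCm38.p6, written 5′ to 3′ along the gene, and the capitals mark CCAAT and CCACG, or their reverse complements CGTGG and ATTGG where the element runs against the gene. For Hspa5 the stretch is chr2:34772005-34772064 on the plus strand, for Pdia6 chr12:17266471-17266530 on the plus strand, for Calr chr8:84847054-84847113 on the minus strand and for Canx chr11:50325779-50325838 on the minus strand. The element stands 46 bases before the RefSeq start in Hspa5, 79 in Pdia6, 126 in Canx and 143 in Calr. GENCODE begins Hspa5 further upstream, at 34771970, so in that annotation the stretch lies inside the gene.
Hspa5: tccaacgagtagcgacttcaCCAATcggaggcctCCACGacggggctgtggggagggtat
Pdia6: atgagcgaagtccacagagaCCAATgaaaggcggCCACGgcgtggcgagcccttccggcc
Canx: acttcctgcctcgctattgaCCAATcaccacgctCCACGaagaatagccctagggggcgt
Calr: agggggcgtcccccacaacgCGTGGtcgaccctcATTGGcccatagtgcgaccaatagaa

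The search covered both strands of the 250 bases before each start, in 32851 promoters, of which 33 of the 40 members had one. The element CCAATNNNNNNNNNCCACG was in 0.113% of all promoters and in those of 8 members, namely Hspa5, Hsp90b1 (2 copies), Creld2, Dnajc3, Calr, Canx, Pdia6 and Syvn1. Of these 8 genes 6 were called lower against 8 weeks, with a median difference of -0.70 (-1.04 to -0.20). Of the 25 members with a promoter and no match 14 were called lower, with a median of -0.56 (-1.18 to 0.43). The related element ATTGGNCCACG was in 0.0304% of promoters and, among members, in that of Herpud1 alone. TGACGTGG, a site of XBP1, was in 0.563% of promoters and in 0 members. TGATGNAA, the amino acid response element of ATF4 and its partners, was in 3.45% and, among members, in Herpud1. A match of letters is a description and not a bound site.

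The lumenal chaperones had the lowest median difference of the 8 role groups against 8 weeks, -0.88, and 7 of 9 were called lower. BiP (Hspa5; GRCm38 chromosome 2, 34771970 to 34777547, plus strand), the Hsp70 chaperone that holds unfolded chains, had 513 to 918 CPM in aged uteri (median 734), 903 to 2106 CPM at 8 weeks (median 1539) and 888 to 1538 CPM at 5 weeks (median 1059). All aged libraries lay below all younger ones of their own set, and across sets the highest aged libraries overlapped the lowest young ones. Its means were 729 ± 194 CPM in aged, 1521 ± 389 CPM at 8 weeks and 1144 ± 224 CPM at 5 weeks (SD, n = 6, 7 and 7 libraries, as for all means here). It fell by 1.04 ± 0.18 (SE) against 8 weeks (adjusted p = 0.00094) and by 0.65 ± 0.18 against 5 weeks (adjusted p = 0.0156), and the call against 8 weeks held without any 1 library and within either set. The call against 5 weeks was lost with no set term (adjusted p = 0.069) and within either set alone.

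Manf (chromosome 9, 106838312 to 106891979, minus strand), which binds BiP and is secreted under ER stress, had 74.7 to 193 CPM in aged uteri (median 132), 231 to 504 CPM at 8 weeks (median 281) and 179 to 365 CPM at 5 weeks (median 228). Every aged library lay below every 8-week library, and aged replicates 1, 2 and 7 lay far below the other 3. Manf fell by 1.33 ± 0.23 against 8 weeks (adjusted p = 0.00094) and by 0.92 ± 0.23 against 5 weeks (adjusted p = 0.0086). It shares 9.25% of its exon length with other annotated genes, and the library kit does not keep strand, so some of its reads may be theirs.

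Sdf2l1, a partner of the ER J proteins, averaged 30.9 ± 8.58 CPM in aged uteri, 71.3 ± 28.7 CPM at 8 weeks and 63.2 ± 33.6 CPM at 5 weeks and fell by 1.18 ± 0.25 against 8 weeks (adjusted p = 0.004). Creld2, a secreted ER stress protein, fell by 0.94 ± 0.20 (adjusted p = 0.0035), and no aged library of Sdf2l1 or Creld2 reached the lowest 8-week one. Hsp90b1, the ER's Hsp90, fell by 0.77 ± 0.19 (adjusted p = 0.0092), and 15.7% of its exon length overlaps other genes. That call was lost within the earlier set alone. Dnajb11, a J protein that hands chains to BiP, fell by 0.84 ± 0.21 (adjusted p = 0.0109), a call lost with no set term, with columns by file and without the 4 libraries whose file names another age or set. The call of Hyou1, the exchange factor of BiP, at -0.88 ± 0.30 (adjusted p = 0.0465), was lost in 14 of the 20 fits that leave out 1 library. Dnajc3, which binds BiP and inhibits PERK, differed by -0.54 ± 0.19 (adjusted p = 0.0618), and Dnajb9, a J protein and repressor of IRE1, by -0.23 ± 0.23 (adjusted p = 0.52), so neither was called. Dnajb9 was the one chaperone whose difference against 8 weeks had opposite signs in the sets, -0.56 in the later and 0.46 in the earlier.

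**Figure D2:**
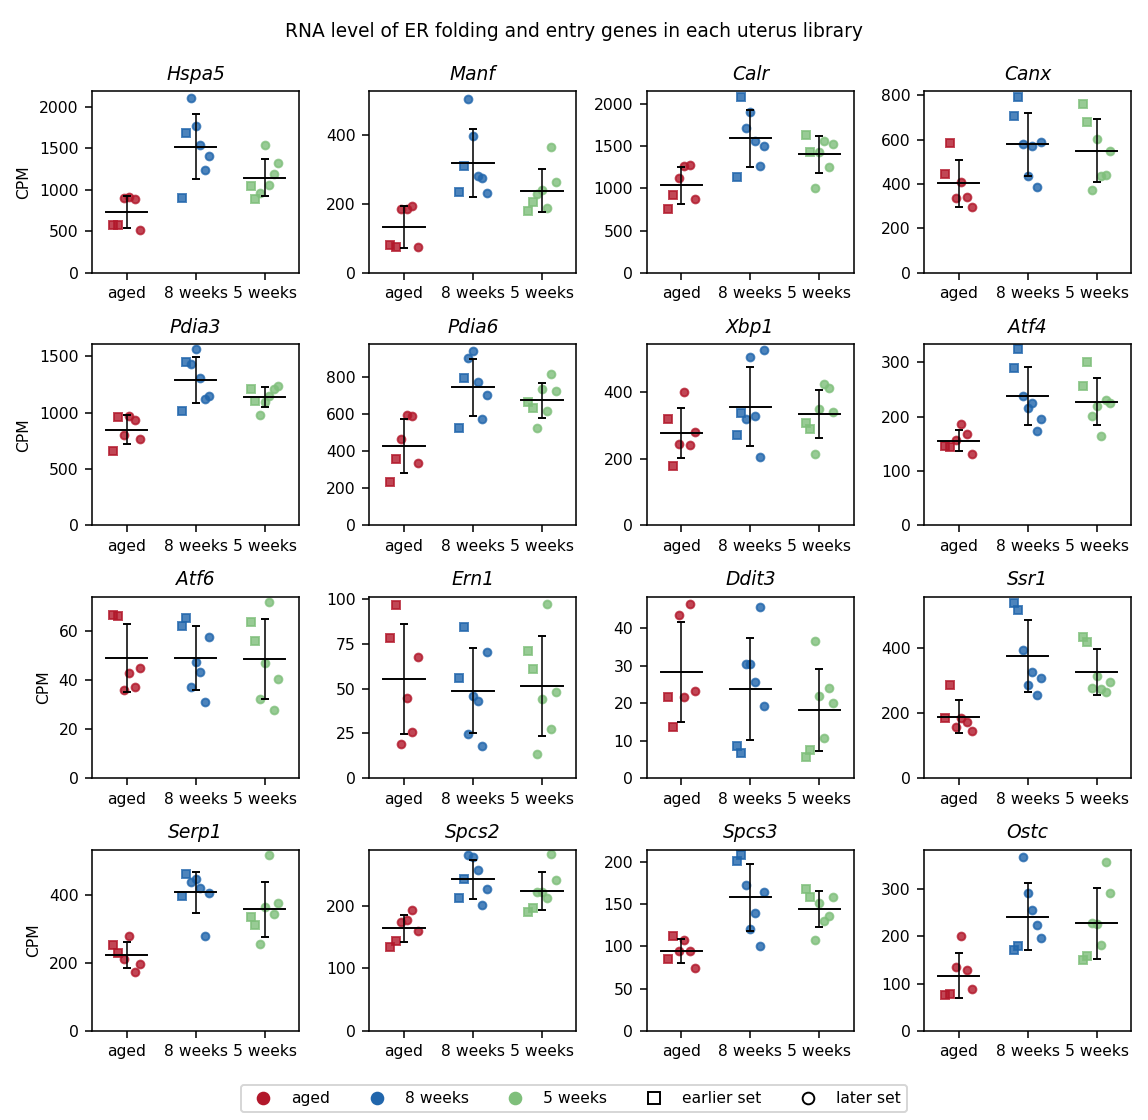
CPM of 16 members in every library, with aged uteri on the left of each panel, 8 weeks in the middle and 5 weeks on the right, where squares are libraries of the earlier set, circles those of the later set, and bars the mean and SD. In Hspa5 the aged libraries lie between 513 and 918 CPM and the 8-week libraries between 903 and 2106 CPM, while in Atf6 and Ern1 the 3 groups cover the same range.

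Both lectin chaperones, which hold glycoproteins by their trimmed sugars until they fold, were called lower against 8 weeks. Calreticulin (Calr; chromosome 8, 84841850 to 84846934, minus strand), the most abundant member per length, had 756 to 1283 CPM in aged uteri (median 1018), 1135 to 2084 CPM at 8 weeks (median 1568) and 999 to 1635 CPM at 5 weeks (median 1433). The groups overlapped, since 2 aged libraries exceeded the lowest 8-week library. Calr fell by 0.62 ± 0.18 (adjusted p = 0.0216) against 8 weeks and differed by -0.45 ± 0.18 (adjusted p = 0.074) against 5 weeks. The first call was lost without aged replicate 1 (adjusted p = 0.063), without 8-week replicate 2 (0.0621) and without the 4 libraries whose file names another age or set (0.0553), as well as with no set term (0.0835), with columns by file (0.0864) and within the earlier set alone (0.0943).

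Calnexin (Canx; chromosome 11, 50293961 to 50325673, minus strand), the membrane-bound lectin, had 297 to 585 CPM in aged uteri (median 374), 384 to 792 CPM at 8 weeks (median 579) and 372 to 760 CPM at 5 weeks (median 549). Libraries of the earlier set were the highest in each group, and within that set both aged libraries lay below the 4 young ones. Canx fell by 0.55 ± 0.14 against 8 weeks (adjusted p = 0.0127) and by 0.47 ± 0.14 against 5 weeks (adjusted p = 0.0238). The call against 8 weeks was lost with no set term (adjusted p = 0.158), with columns by file (0.105) and within the earlier set alone (0.105). Against 5 weeks it was lost with no set term (adjusted p = 0.211), within the earlier set alone (0.151) and under quantile normalization (0.0526), and without aged replicate 1 or 7 or without 5-week replicate 7, with adjusted p of 0.0504 to 0.0593.

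Of the 4 disulphide isomerases, which make and rearrange the cysteine bonds of new chains, 3 were called lower against 8 weeks. Pdia6 (chromosome 12, 17266545 to 17284770, plus strand) had 233 to 595 CPM in aged uteri (median 411), 528 to 943 CPM at 8 weeks (median 775) and 524 to 817 CPM at 5 weeks (median 667). Aged replicates 5 and 6 overlapped the young libraries and the other 4 aged libraries lay below all of them. Pdia6 fell by 0.82 ± 0.19 against 8 weeks (adjusted p = 0.0053) and by 0.69 ± 0.19 against 5 weeks (adjusted p = 0.0118).

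Pdia3 (chromosome 2, 121413775 to 121438687, plus strand), the isomerase that works with calnexin and calreticulin, had 657 to 973 CPM in aged uteri (median 869), 1013 to 1563 CPM at 8 weeks (median 1308) and 979 to 1237 CPM at 5 weeks (median 1145). All 6 aged libraries lay below all 14 younger ones, which was so for 0.571% of all genes and, among members, for Pdia3 and Ssr2. Pdia3 fell by 0.60 ± 0.14 against 8 weeks (adjusted p = 0.0059) and by 0.43 ± 0.14 against 5 weeks (adjusted p = 0.0294). The call against 8 weeks was lost with columns by file (adjusted p = 0.07) and within the earlier set alone (0.16). The call against 5 weeks was lost with no set term (adjusted p = 0.119), within the earlier set alone (0.222), in 6 fits without 1 library (aged replicates 1, 4 or 7, or 5-week replicates 1, 2 or 7), with median centring (adjusted p = 0.051) and with the replicate block (adjusted p = 0.055). Pdia4 fell by 0.79 ± 0.18 against 8 weeks (adjusted p = 0.006), with no overlap between 150 to 315 CPM in aged and 351 to 534 CPM at 8 weeks. P4hb, which is both the classic isomerase and the beta subunit of collagen prolyl 4-hydroxylase, was the one not called, at -0.45 ± 0.17 (adjusted p = 0.0749).

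Of the 5 stress sensors and transcription factors 1 was called lower against 8 weeks, and their median was -0.03. Atf4 (chromosome 15, 80255184 to 80257541, plus strand), the factor whose translation rises when PERK acts, had 132 to 186 CPM in aged uteri (median 152), 173 to 324 CPM at 8 weeks (median 225) and 165 to 301 CPM at 5 weeks (median 226). One aged library, replicate 5, overlapped the 8-week range, and the aged libraries had the narrowest spread. Atf4 fell by 0.60 ± 0.14 against 8 weeks (adjusted p = 0.006) and by 0.55 ± 0.14 against 5 weeks (adjusted p = 0.008). Its difference against 8 weeks was -0.39 in the later set and -1.07 in the earlier set, and the interaction between age and set did not pass (adjusted p = 0.239). With columns by file the call against 8 weeks was lost (adjusted p = 0.0525).

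Xbp1, the factor that IRE1 activates by splicing its RNA, had 180 to 400 CPM in aged uteri (median 264), 205 to 528 CPM at 8 weeks (median 329) and 214 to 426 CPM at 5 weeks (median 342), with a difference of -0.32 ± 0.22 (adjusted p = 0.317) against 8 weeks. The groups overlapped widely, and gene-level values do not separate spliced from unspliced Xbp1. Ern1, which encodes IRE1 itself, had 19.0 to 97.1 CPM in aged uteri (median 56.4), 17.8 to 84.3 CPM at 8 weeks (median 45.8) and 13.4 to 97.2 CPM at 5 weeks (median 48.0), a difference of 0.08 ± 0.38 (adjusted p = 0.915) against 8 weeks. Atf6, the sensor cut free in the Golgi, had 36.1 to 66.3 CPM in aged uteri (median 43.9), 30.9 to 65.3 CPM at 8 weeks (median 47.3) and 27.8 to 71.7 CPM at 5 weeks (median 46.8), a difference of -0.03 ± 0.18 (adjusted p = 0.929). The 3 age groups covered much the same range in both sensors, the sign of these small differences changed between settings, and both genes were lower in the later than in the earlier set (-0.99 for Ern1 and -0.60 for Atf6).

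Ddit3 (chromosome 10, 127290774 to 127296288, plus strand), whose product CHOP promotes cell death under lasting stress, had 13.7 to 46.3 CPM in aged uteri (median 22.4), 6.76 to 45.5 CPM at 8 weeks (median 25.7) and 5.68 to 36.5 CPM at 5 weeks (median 20.1). The age groups overlapped, while the 4 young libraries of the earlier set, at 5.68 to 8.44 CPM, lay below all others. It rose by 0.80 ± 0.27 against 5 weeks (adjusted p = 0.0423) and differed by 0.43 ± 0.27 (adjusted p = 0.295) against 8 weeks. The call against 5 weeks was lost under quantile normalization (adjusted p = 0.14), median centring (0.0912), with no set term (0.332), with columns attached by file (0.0638) and in 12 of the 20 fits without 1 library. It was 1.42 higher in the later than in the earlier set, and other annotated genes cover 10.9% of its exons, Mars on the other strand included.

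Among the 4 genes of ER-associated degradation 1 was called lower against 8 weeks and the median was -0.28. Edem1 (chromosome 6, 108828641 to 108859356, plus strand), a lectin that marks misfolded glycoproteins for removal, had 36.3 to 86.1 CPM in aged uteri (median 45.2), 46.5 to 132 CPM at 8 weeks (median 74.8) and 40.5 to 147 CPM at 5 weeks (median 69.0). Both aged libraries of the earlier set lay below the 4 young ones there, and in the later set aged and young libraries overlapped. Edem1 fell by 0.66 ± 0.17 against 8 weeks (adjusted p = 0.0141) and by 0.58 ± 0.17 against 5 weeks (adjusted p = 0.0226). The first call was lost with no set term (adjusted p = 0.27), with columns by file (0.0961) and without the 4 libraries whose file names another age or set (0.0604), and the second with no set term (0.316) and without aged replicate 2 (0.0533) or 5-week replicate 1 (0.0532).

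Herpud1, a scaffold of the degradation complex and the member whose promoter holds ATTGGNCCACG, had 68.8 to 135 CPM in aged uteri (median 103), 70.3 to 167 CPM at 8 weeks (median 130) and 55.5 to 130 CPM at 5 weeks (median 101). Its differences were -0.30 ± 0.17 (adjusted p = 0.224) against 8 weeks and 0.13 ± 0.17 (adjusted p = 0.622) against 5 weeks, and the ranges overlapped. Sel1l, the adaptor at the core of the complex, differed by -0.25 ± 0.20 (adjusted p = 0.409) against 8 weeks. Syvn1, its ubiquitin ligase, differed by -0.20 ± 0.28 (adjusted p = 0.66).

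The Sec61 channel and the proteins around it were called lower nearly throughout, 7 of 8 against 8 weeks and 7 of 8 against 5 weeks, with medians of -0.79 and -0.70. Ssr1, the alpha subunit of the translocon-associated protein complex (chromosome 13, 37966605 to 37994217, minus strand), had 146 to 288 CPM in aged uteri (median 179), 257 to 538 CPM at 8 weeks (median 327) and 265 to 435 CPM at 5 weeks (median 296). One aged library, replicate 2 of the earlier set, reached into the range of the young libraries, whose own set lay at 418 to 538 CPM. Ssr1 fell by 1.00 ± 0.12 against 8 weeks (adjusted p = 0.000129) and by 0.82 ± 0.12 against 5 weeks (adjusted p = 0.000154), the smallest adjusted p of the 40 members in both comparisons. Both calls held in every alternative fitted.

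Serp1 (chromosome 3, 58519817 to 58525892, minus strand), a small protein that sits at the channel and protects new chains under stress, had 173 to 279 CPM in aged uteri (median 220), 278 to 463 CPM at 8 weeks (median 421) and 257 to 517 CPM at 5 weeks (median 343). Aged replicate 5 overlapped 8-week replicate 6 and 5-week replicate 3, and the other 5 aged libraries lay below all young ones. Serp1 fell by 0.865 ± 0.16 against 8 weeks (adjusted p = 0.0014) and by 0.66 ± 0.16 against 5 weeks (adjusted p = 0.0063), and the call against 5 weeks was lost within the earlier set alone (0.131).

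Ssr2, the beta subunit of the same complex, had 105 to 246 CPM in aged uteri (median 154), 279 to 482 CPM at 8 weeks (median 314) and 264 to 522 CPM at 5 weeks (median 314), with no overlap. It fell by 1.06 ± 0.20 against 8 weeks (adjusted p = 0.0018) and by 1.04 ± 0.20 against 5 weeks (adjusted p = 0.0015), and 12.8% of its exon length overlaps a gene on the other strand. The gamma subunit Ssr3 fell by 0.91 ± 0.24 against 8 weeks (adjusted p = 0.0146). The delta subunit Ssr4 differed by -0.44 ± 0.21 (adjusted p = 0.142) against 8 weeks and fell by 0.59 ± 0.21 against 5 weeks (adjusted p = 0.0463), a call lost in 13 of the 20 fits without 1 library. Of the channel itself, the beta subunit Sec61b fell by 0.71 ± 0.16 against 8 weeks (adjusted p = 0.0048), the gamma subunit Sec61g by 0.62 ± 0.20 (adjusted p = 0.0363) and the pore Sec61a1 by 0.47 ± 0.16 (adjusted p = 0.0457). The Sec61g call was lost in 9 and the Sec61a1 call in 14 of those 20 fits. With columns by file the calls of Ssr2, Ssr3, Sec61a1, Sec61b and Sec61g against 8 weeks were all lost, and with no set term those of the 3 channel subunits. Sec61g had 84.2 to 335 CPM across the 14 later libraries and 5.23 to 10.7 CPM across the 6 earlier ones, a set difference of 4.32 (adjusted p = 3.28e-14), and 14.3% of its 60-base windows occur in other annotated genes, as do 14.3% of those of Sec61b.

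Signal peptidase, which cuts the leader from the entering chain, had 2 of 3 subunits called lower against 8 weeks. Spcs2 (chromosome 7, 99837569 to 99863462, minus strand) had 135 to 193 CPM in aged uteri (median 167), 201 to 282 CPM at 8 weeks (median 244) and 190 to 283 CPM at 5 weeks (median 222). The aged and 8-week libraries did not overlap, and 1 aged library passed the lowest 5-week one. Spcs2 fell by 0.56 ± 0.11 against 8 weeks (adjusted p = 0.0022) and by 0.44 ± 0.11 against 5 weeks (adjusted p = 0.0085). The call against 8 weeks was lost with columns by file (adjusted p = 0.0578), and that against 5 weeks within the earlier set alone (0.0813).

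Spcs3 (chromosome 8, 54520433 to 54529998, minus strand), the other accessory subunit called, had 74.2 to 112 CPM in aged uteri (median 94.0), 101 to 208 CPM at 8 weeks (median 164) and 107 to 168 CPM at 5 weeks (median 151). Aged replicates 2 and 5 overlapped the lowest young libraries. Spcs3 fell by 0.72 ± 0.15 against 8 weeks (adjusted p = 0.0026) and by 0.62 ± 0.15 against 5 weeks (adjusted p = 0.0057). Spcs1, which shares 16.3% of its exon length with Glt8d1 on the other strand, differed by -0.42 ± 0.15 (adjusted p = 0.0637) against 8 weeks and was not called.

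Oligosaccharyltransferase, which moves the sugar tree onto asparagine, had 3 of 5 members called lower against 8 weeks and a median of -0.50. Ostc (chromosome 3, 130695912 to 130709444, minus strand), the subunit that couples the enzyme to the channel, had 74.8 to 200 CPM in aged uteri (median 108), 172 to 369 CPM at 8 weeks (median 225) and 150 to 358 CPM at 5 weeks (median 226). Aged replicate 5 was the one aged library inside the young range. Ostc fell by 1.05 ± 0.18 against 8 weeks (adjusted p = 0.000966) and by 0.95 ± 0.18 against 5 weeks (adjusted p = 0.0014). The call against 8 weeks was lost with columns by file (adjusted p = 0.0756).

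Ribophorin I (Rpn1; chromosome 6, 88084482 to 88105304, plus strand), a scaffold subunit, had 200 to 402 CPM in aged uteri (median 346), 360 to 669 CPM at 8 weeks (median 487) and 343 to 620 CPM at 5 weeks (median 471). Aged replicates 2, 5 and 6 overlapped the lowest young libraries. Rpn1 fell by 0.63 ± 0.18 against 8 weeks (adjusted p = 0.0188) and by 0.55 ± 0.18 against 5 weeks (adjusted p = 0.0298). The call against 8 weeks was lost without aged replicate 1 (adjusted p = 0.0529) or 8-week replicate 2 (0.0557), and that against 5 weeks in 6 fits (without aged replicates 1, 4 or 7, or 5-week replicates 1, 2 or 7). With columns by file the first was also lost (adjusted p = 0.0702), as it was within the earlier set alone (0.0517), and the second was lost with no set term (0.0676), within the earlier set alone (0.0965) and under quantile normalization (0.0507). Ddost fell by 0.50 ± 0.17 against 8 weeks (adjusted p = 0.0474), a call lost in 14 of the 20 fits without 1 library, while Dad1 (-0.49 ± 0.18, adjusted p = 0.0591) and Rpn2 (-0.43 ± 0.16, adjusted p = 0.0703) were not called.

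Between the young ages, 8 weeks against 5 weeks, 0 members were called, and limma called 0 of all genes (0%). At an unadjusted p under 0.05 there were 139 genes (1.09%), fewer than that threshold alone would give with no difference. They included Hspa5 (0.39 ± 0.18, unadjusted p = 0.0384), Creld2 (0.45 ± 0.19, 0.0274) and Herpud1 (0.43 ± 0.16, 0.0154), all higher at 8 weeks. The adjusted p of each was 0.9999 in limma. The median difference of the members was 0.12, beside 0.03 for all genes, and that of the lumenal chaperones was 0.30.

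The 2 sets, tested by the set term, differed in many genes, and the members lay near the shares of all genes. In the later set 14 members (35%) were called lower, beside 38.3% of all genes, and 9 (22.5%) higher, beside 20.5%. The age difference was therefore also read within each set. In the earlier set both aged libraries lay below all 4 young ones for 31 members, as for 24.8% of all genes, and in the later set all 4 aged lay below all 10 young ones for 6 members (Hspa5, Pdia3, Sec61b, Ssr1, Ssr2 and Spcs2), as for 2.11% of all genes. Across sets, all aged lay below all 8-week libraries for 7 members (Manf, Sdf2l1, Creld2, Pdia3, Pdia4, Ssr2 and Spcs2), as for 1.02% of all genes. The difference against 8 weeks was below 0 in both sets for 36 members, as for 30.7% of all genes, and all 26 called members were among them.

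The median difference of the members against 8 weeks was -0.55 in the later set and -0.73 in the earlier set, beside 0.03 and 0.07 for all genes. Of the 26 called members 21 had the larger fall in the earlier set, a count that was not made over all genes. Whether the difference itself changed between sets was tested by an interaction term, which called 0 members, where 0.0235% of all genes were called. At an unadjusted p under 0.05 it had 1855 genes (14.5%) and 5 members, led by Dnajb11 (later minus earlier 1.09 ± 0.38, adjusted p = 0.205) and Atf4 (0.68 ± 0.26, adjusted p = 0.239).

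**Figure D3:**
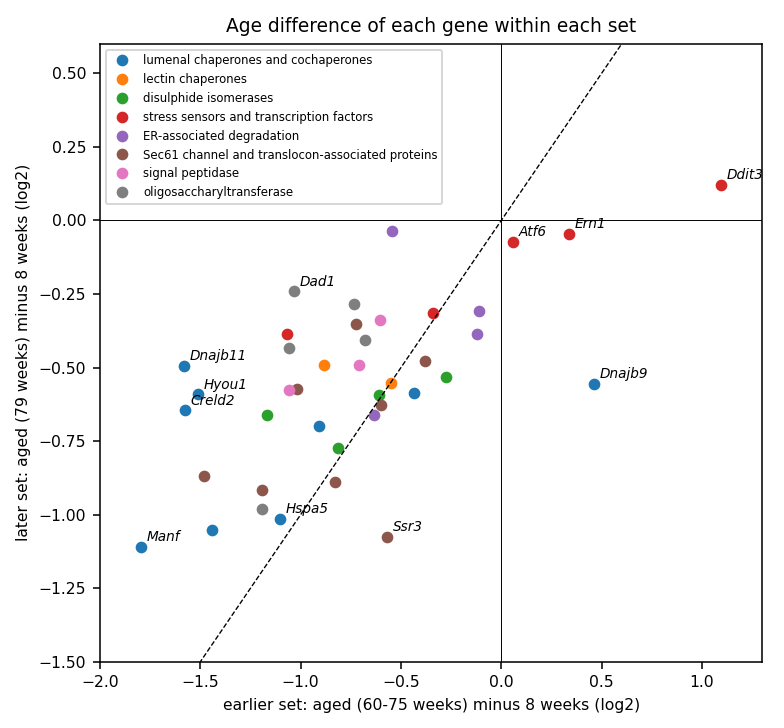
Difference between aged and 8-week uteri of each of the 40 genes in the earlier set (horizontal axis, log2) and in the later set (vertical axis, log2), coloured by role, with the dashed line marking equal differences. Points lie in the lower left, where both are below 0, for 36 genes, and Ddit3 alone lies in the upper right, at 1.10 and 0.12.

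Each library was also summarised by its median member. Relative to the 8-week mean of the same set, the median member stood at -0.83 and -0.72 in the 2 aged libraries of the earlier set, and the 4 later aged libraries stood at -0.56, -0.38, -0.46 and -0.76. The 8-week libraries stood between -0.37 (replicate 6) and 0.20, and the 5-week libraries between -0.48 (replicate 3) and -0.03. Aged replicates 5 and 6, the closest to the young ones, thus lay above 5-week replicate 3, which together with aged replicate 5 is among the 4 libraries whose file names another age or set. An aged library was the lowest of all 20 for 30 members, led by aged replicate 7 (11 members) and aged replicate 1 (9), and the highest for 1. This count was not made over all genes, so it cannot be read as particular to the members. Without 5-week replicate 3, 25 members were called lower against 5 weeks, as were 1263 of all genes, beside 20 members and 1203 genes with it.

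**Figure D4:**
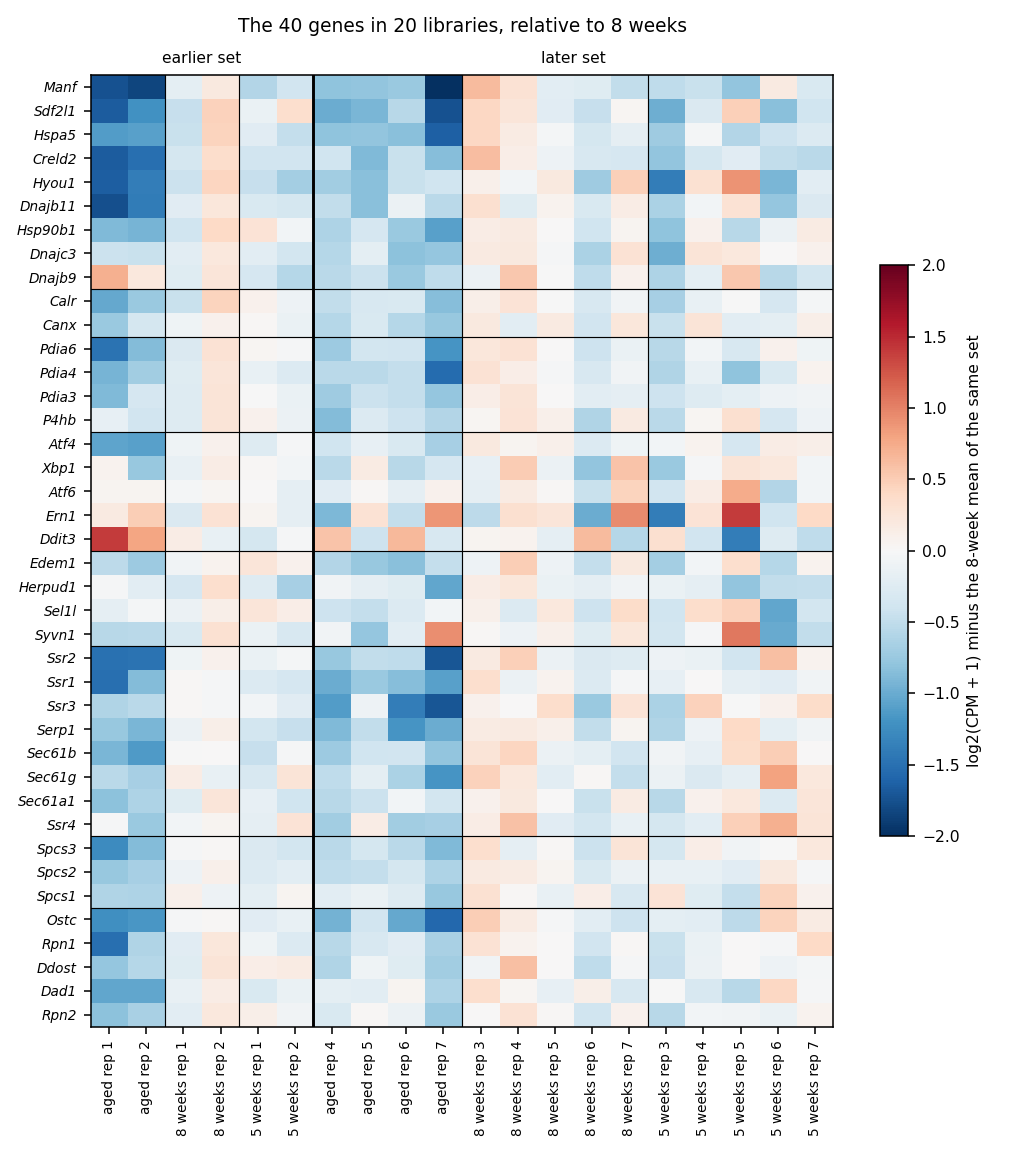
The 40 genes (rows, by role) in the 20 libraries (columns, by set and then aged, 8 weeks, 5 weeks), coloured by log2(CPM + 1) minus the 8-week mean of the same set. Blue (lower) fills most of the aged columns for chaperones, channel and glycosylation genes, with Manf in aged replicate 7 beyond the end of the scale at -2.10. Xbp1, Atf6, Ern1, Ddit3 and the chaperone Dnajb9 (0.71 and 0.21 in the aged libraries of the earlier set) have aged libraries on both sides of 0. So do Syvn1 (0.92 in aged replicate 7), Ssr4 (0.15 in aged replicate 5), Dad1 (0.06 in aged replicate 6) and Rpn2 (0.02 in aged replicate 5).

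Per kilobase of annotated exon, the members' mean levels at 8 weeks ran from 5.31 CPM per kb for Atf6 to 554 CPM per kb for Calr. Next to Calr stood Pdia3 (270 CPM per kb in aged, 412 at 8 weeks), P4hb (276 and 371) and Hspa5 (172 and 360). The sensors Atf6 (5.30 in aged, 5.31 at 8 weeks) and Ern1 (6.79 and 5.99) were the lowest, followed by Syvn1 (9.53 and 10.6).

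Other genes of the pathway were read from lists that hold none of the 40, and whether these lists differed from the 40 was not tested. Of all genes 8.53% were lower and 8.64% higher against 8 weeks. Of 23 genes of ER exit and retrieval, 10 were lower against 8 weeks and 0 higher, with a median of -0.42, and they were led by Kdelr2, a receptor that returns escaped chaperones to the ER (164 ± 30.6 CPM in aged, 290 ± 56.7 CPM at 8 weeks, -0.83 ± 0.15, adjusted p = 0.000978), and Tmed2, a cargo receptor of transport vesicles (-0.53 ± 0.11, adjusted p = 0.0037). Among 13 further ER chaperones 4 were lower and 0 higher, with a median of -0.29, led by Erp44, which retains unfinished proteins (-0.58 ± 0.13, adjusted p = 0.0052), and the J protein gene Dnajc25 (-0.55 ± 0.165, adjusted p = 0.0272). The further isomerases had 5 lower and 0 higher of 21, among them Tmx1 (-0.49 ± 0.12, adjusted p = 0.0094). Erp44, Erp29 and Txndc5 stand in both of these lists. Of 22 further genes of targeting and channel 5 were lower and 0 higher, led by Tram1, a membrane protein beside Sec61 (-0.59 ± 0.11, adjusted p = 0.0018), and Srp19, a subunit of the signal recognition particle (-0.64 ± 0.15, adjusted p = 0.0061). The other glycosylation genes had 5 lower and 0 higher of 18, led by Magt1, an oligosaccharyltransferase subunit (-0.60 ± 0.14, adjusted p = 0.006), and Alg8, which builds the sugar tree (-0.96 ± 0.23, adjusted p = 0.0081). Of 9 genes of glycan trimming 1 was lower, Uggt1, the folding sensor that puts a glucose back on (-0.49 ± 0.15, adjusted p = 0.0305).

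Among 20 further degradation genes 4 were lower and 1 higher, with a median of -0.07. Selenos (-0.62 ± 0.12, adjusted p = 0.0017) and Derl2 (-0.47 ± 0.10, adjusted p = 0.004), both of the membrane complex, fell. Os9, a lectin that delivers misfolded glycoproteins to Sel1l, rose to 236 ± 38.6 CPM in aged uteri, against 153 ± 18.2 CPM at 8 weeks (0.61 ± 0.16, adjusted p = 0.0144). Of 18 further sensors and targets 2 were lower and 1 higher, with a median of -0.03. These counts lie near the shares of all genes (8.53% lower and 8.64% higher), so the genes named next describe single genes and not the list. Asns, asparagine synthetase and an ATF4 target, fell by 0.88 ± 0.24 (adjusted p = 0.0149), and Cebpb, a partner of CHOP, by 0.69 ± 0.23 (adjusted p = 0.0475). Ppp1r15a, the phosphatase subunit that restarts translation after stress, rose by 0.84 ± 0.24 (adjusted p = 0.0218), with 37.9 ± 13.1 CPM in aged and 20.7 ± 7.53 CPM at 8 weeks.

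Cytosolic chaperones, which fold proteins that never enter the ER, were taken for comparison. Of 23 of them 7 were lower and 0 higher in aged than in 8-week uteri, with a median of -0.41, led by Dnaja2 (-0.49 ± 0.10, adjusted p = 0.0027) and Cct8 (-0.70 ± 0.14, adjusted p = 0.0029).

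**Figure D5:**
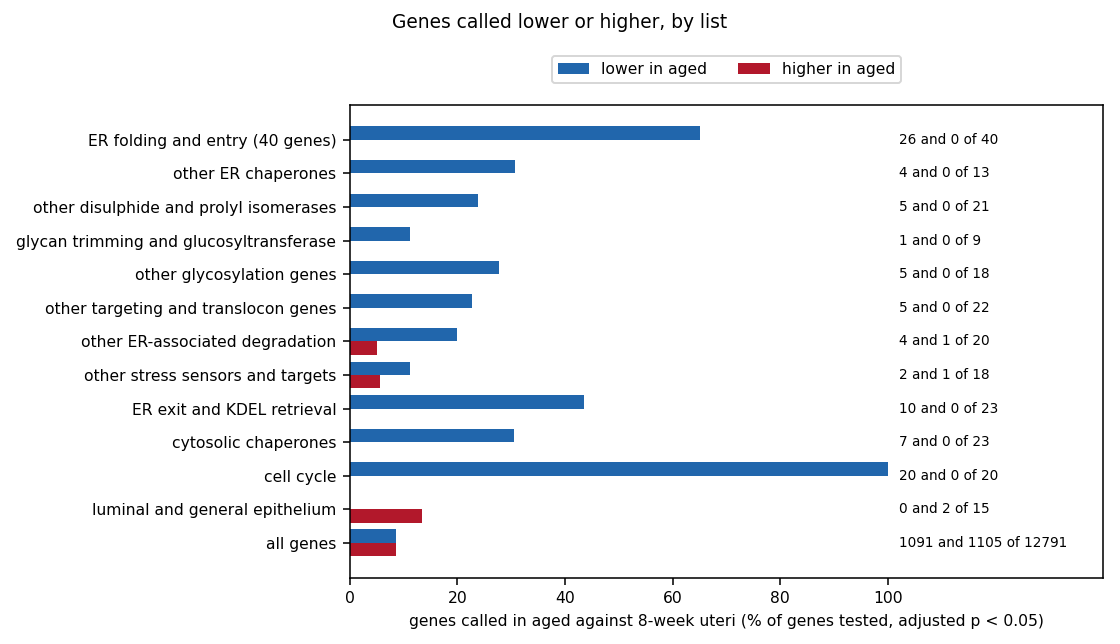
Share of each list called lower (blue) or higher (red) in aged against 8-week uteri, in percent of the genes tested, with the counts called lower and higher at the right, for the 40 members, 8 further lists of the pathway, cytosolic chaperones, 2 marker lists and all genes. The 40 members stand at 26 of 40 and the cell cycle list at 20 of 20, with 1091 and 1105 of all 12791 genes in the last row.

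Marker lists of the cell types a whole uterus holds were read beside the members, and their part in the differences of the members was not tested. All 20 cell cycle genes were lower in aged than in 8-week uteri, with a summed level of 171 to 897 CPM in aged and 823 to 4227 CPM at 8 weeks. Of the luminal and general epithelial markers 0 of 15 were lower and 2 higher, with sums of 2399 to 7869 CPM in aged and 2623 to 12245 CPM at 8 weeks, and of the glandular markers 1 of 5 was lower and 2 higher (410 to 2847 and 243 to 612 CPM). Plasma cells, which are known for a large ER, had 4 of 9 markers higher and 1 lower, with sums of 779 to 7363 CPM in aged and 292 to 820 CPM at 8 weeks. Stroma (0 of 12 called), smooth muscle (0 of 10) and blood endothelium (0 of 10) showed no calls, and the sums of smooth muscle ran from 2812 to 26249 CPM in aged and from 1535 to 19091 CPM at 8 weeks. The sets differed here, with medians against 8 weeks of 0.75, 1.93 and 1.27 in the earlier set and -0.29, -0.26 and -0.04 in the later set. Stromal sums were 5405 to 5489 CPM in aged and 1825 to 3352 CPM at 8 weeks (earlier set). In the later set they were 4260 to 8475 and 5189 to 8202 CPM. Macrophages had 1 of 11 markers higher (1059 to 3092 CPM in aged, 419 to 3402 CPM at 8 weeks), with medians of 1.25 in the earlier and 0.27 in the later set. Of the estrogen-responsive genes 4 of 16 were lower and 1 higher, with sums of 5496 to 39155 CPM in aged and 4493 to 26783 CPM at 8 weeks. Their median difference was -0.53, and 12 of the 16 lay below 0. C3 (6058 ± 7445 CPM in aged, 2006 ± 1165 CPM at 8 weeks) and Ltf (6147 ± 2924 and 2212 ± 1041 CPM) had the highest means in that list and weigh most in its sums. The tables list only genes with 10 reads or more in each library, so 5 of the 9 glandular markers and 9 of the 16 plasma cell markers have a value and the others have none. Of those that have one, Top2a averaged 42.5 ± 48.1 CPM in aged and 276 ± 219 CPM at 8 weeks, Pigr 796 ± 910 and 175 ± 138 CPM, and Igkc 1011 ± 1068 and 58.0 ± 97.9 CPM.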

How the data were processed

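RNA of 20 whole uterus libraries was analysed. The authors deposited 1 table of CPM (reads per gene, scaled to 1000000 over the genes listed) per sample. Per the submitters' processing notes, the tools were fastp, STAR, featureCounts and edgeR, on GRCm38. Versions, roles and the use of strand are not given in the sources used here. Values stepped in whole reads, from 10 reads up, and depth was recomputed from the step. The kit (NEBNext Ultra) does not keep strand, and overlapping genes cannot be told apart. Of 21 files 1 held symbols in place of numbers and was not used. Columns were assigned by their own header. Aged replicate 3 was not analysed here.

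From the CPM, log2(CPM + 1) was tested with limma 3.58.1 in R 4.3.3 (trend, set as covariate, Benjamini-Hochberg over 12791 genes, threshold 0.05), checked first on simulated data. The 40 members and the lists were chosen with earlier results of these data known. Values by library were given for the 2 members of each role group with the smallest adjusted p against 8 weeks, plus Hspa5, Xbp1, Atf4, Ddit3, Ern1 and Atf6. Ssr2 and other members were named with their values known. Of the other lists, the 2 smallest adjusted p in each direction were eligible, and those that passed were named. Marker counts and sums followed lists of textbook markers. Coordinates and exon lengths are from GENCODE release 21 for mouse on GRCm38, and promoters from RefSeq (GRCm38.p6), of which 250 bases before the start were searched. Protein sequences were not used here. Alternatives were other pseudocounts (0.1 and 5), a mean of at least 5 CPM, quantile normalization, median centring, no set term, the replicate block, each set alone, columns by file, and leaving out each library.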

Additional observations from a re-analysis of the deposited data

Results flagged for a closer look

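Within groups, 57 sets of values of the 19 members described by library were checked for a library far from the others, and 2 stood apart. Chance gives about 1 in 20. Ssr1 in aged replicate 2 was the highest of its group at 288 CPM, with a gap of 0.647 of the group's range to the next library. Serp1 in 8-week replicate 6 was the lowest of its group at 278 CPM, with a gap of 0.699 of the range. Aged replicate 2 belongs to the earlier set, in which the young libraries also had more Ssr1 (418 to 538 CPM). In 8-week replicate 6 the median member lay 0.374 below the 8-week mean of its set.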

How the results depend on the processing

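The count of 26 members lower against 8 weeks became 17 with no set term, 2 within the later set alone, 10 with columns attached by file (469, 132 and 256 of all genes, against 1091) and 20 to 29 without 1 library each. It was 20 within the earlier set alone, where 1691 of all genes were lower. Without 1 library each, 647 to 1382 of all genes were lower. The 20 members lower against 5 weeks became 11 with no set term, 1 within the later set alone (565 and 283 of all genes, against 1203), 25 with columns by file (727) and 15 to 25 without 1 library. In the fits without 1 library, 839 to 1329 of all genes were lower against 5 weeks. The 1 member higher against 5 weeks (Ddit3) became 0 under quantile normalization, median centring, no set term, the later set alone and columns by file, and 0 to 1 without 1 library. Against 8 weeks 1 member (Ddit3) was higher within the earlier set alone, as were 1922 of all genes, and the interaction called 1 member with columns by file. No member was called between 8 and 5 weeks under any setting. Quantile normalization and median centring left 25 and 24 members lower against 8 weeks, beside 1335 and 1362 of all genes, and shifted the median of all genes to 0.006 and 0.005. The causes were not tested.

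After the mean of each age and set was removed, same-numbered libraries correlated at r of -0.505 to 0.279. The r was over 0.1 in 10 of 19 pairs, and 5 of 20 libraries correlated best with their own number. With 2 libraries per age in the earlier set, same-numbered pairs there repeat a value (0.269 for both pairs of aged and 5 weeks). No clear pairing by number was seen, and the check cannot exclude one. With the replicate block in place of the set term, 23 members were lower against 8 weeks, as were 835 of all genes. Against 5 weeks 18 members were lower and 1 higher, beside 1075 and 1338 of all genes. 

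Ern1 and Atf6 changed sign. Against 8 weeks Ern1 was -0.079 with the replicate block, -0.047 in the later set, -0.223 by file, -0.176 without the 4 libraries whose file names another age or set and -0.099 to 0.278 without 1 library. Atf6 was 0.057 in the earlier set and -0.103 to 0.043 without 1 library. Against 5 weeks Ern1 was -0.029 under median centring, -0.105 with the block, -0.107 in the later set, -0.274 by file, -0.347 without the 4 libraries and -0.178 to 0.284 without 1. Atf6 was -0.026 under quantile normalization, -0.067 under median centring, -0.028 with the block, -0.045 in the later set, -0.064 by file, -0.078 without the 4 libraries and -0.075 to 0.148 without 1.

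Of the 26 calls against 8 weeks 20 held without any 1 library, and of the 21 against 5 weeks 13 did. The count tests edgeR and DESeq2 were planned on recovered reads and not run. Genes under 10 reads in any library are not in the tables, so depth limits low genes most.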
